A study of Mus musculus with 75 samples.

Results

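Haematopoietic stem cells (HSC) of Kmt2c knockout mice (ko) were compared after interleukin 1 (IL-1) and after phosphate-buffered saline (PBS), 4 RNA-seq libraries against 4. These 8 libraries, out of 75 in the series, were taken by their labels, and every gene that passed the count filter was tested. The ko IL1 mice had the genotype Kmt2c f/f with Vav-Cre, were 8 weeks old and received 0.5 µg of IL-1 per mouse for 3 days. The ko PBS mice had the same genotype and age and received the vehicle for 3 days. Set beside them were wt IL1 (3 libraries) and wt PBS (4 libraries) HSC of wild-type mice with no Vav-Cre label, treated in the same way (0.5 µg for 3 days, or vehicle for 3 days), haematopoietic progenitors (HPC) of ko mice after the same IL-1 or PBS treatment (3 libraries each), and untreated ko and wt HSC (4 libraries each) of a separate experiment, all from mice 8 weeks old. Vav-Cre is a transgene that recombines floxed alleles throughout the blood lineages, so that both ko groups carry the deletion and the Cre, and other blood cells of the same mice lack Kmt2c too. Nothing in the labels says that replicates are separate animals. Each ko HSC group held libraries with Y-linked reads and others with Xist, as given below, so neither came from a single animal. Where libraries do share an animal, the p values cover technical spread in part.

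IL-1 is an inflammatory cytokine that binds Il1r1 with its accessory chain Il1rap and signals through Myd88 to NF-kB and the MAP kinases, whose targets include feedback inhibitors and secreted antimicrobial proteins. Lasting exposure to IL-1 is known to push HSC towards division and towards the myeloid lineage. Kmt2c encodes a methyltransferase of histone H3 lysine 4 that acts mainly at enhancers.

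Total counts of the 8 libraries ranged from 22.9 M to 38.7 M. The cell type entry of all HSC libraries of this experiment reads HPCs, while their titles, source names and descriptions say HSC. Slamf1, the surface receptor CD150 used to sort HSC, averaged 44.3 ± 1.43 CPM (reads scaled to a common library total) in ko IL1 and 38.0 ± 7.58 CPM in ko PBS HSC (SD, n = 4 each), against 5.41 ± 1.19 and 3.80 ± 1.19 CPM in the HPC libraries of those groups (SD, n = 3 each). Cd48, which HSC lack and HPC carry, averaged 11.5 ± 0.283 and 8.63 ± 3.87 CPM in the HSC libraries, against 319.8 ± 38.9 and 237 ± 28.4 CPM in HPC, and the titles were followed. Kmt2c had 14.6, 16.8, 16.5 and 13.1 CPM in the ko IL1 libraries, 18.8, 13.7, 25.6 and 16 CPM in the ko PBS libraries, 14.5, 43.6 and 44.1 CPM in the wt IL1 libraries and 58.7, 73.3, 40.6 and 44.5 CPM in the wt PBS libraries. The gene-level count includes exons outside the deleted part, and the library labelled wt IL1 replicate 1 lies within the ko range, so that the wt results below are given without it too. Replicate 1 of ko IL1 and replicate 2 of ko PBS held Y-linked reads, the other 6 ko libraries held Xist, and wt IL1 replicate 2 and wt PBS replicate 4 held both. Wt PBS replicate 1 held Xist, and wt IL1 replicates 1 and 3 and wt PBS replicates 2 and 3 held Y-linked reads. Sex thus went in part with genotype. Beyond a fit with Y-linked reads as a covariate, what sex does to the differences between ko and wt HSC was not tested. Replicate 4 of ko PBS stood apart on the second principal component (-97.2, against -32.3 to 22.4 in the other ko HSC libraries) and had 218 CPM of Kit, the stem cell factor receptor, against 835 to 1550.1 CPM in the others.

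Of 16538 genes tested with edgeR's quasi-likelihood test, 35 (0.212%) differed between ko IL1 and ko PBS at a Benjamini-Hochberg adjusted p under 0.05. IL-1 raised 24 of them (0.145%) and lowered 11 (0.0665%). Among the genes raised were receptors and adaptors of the leukocyte surface (Cd53, Il18rap, Milr1, Fyb, Sla, Gpr18, Ffar2), genes known from megakaryocytes and red cells (Selp, F2rl2, Gata1, Mfsd2b) and the secreted proteins Lcn2 and Tgfbi. Among those lowered were the D-type cyclins Ccnd1 and Ccnd2, the kinase Plk2, the Fc receptor chain Fcer1g and the retinoic acid hydroxylase Cyp26b1. The libraries of ko IL1 and ko PBS did not overlap for any of the 35, a pattern seen in 776 of all genes tested (4.69%), of which 8093 had a positive log2 fold change. At an unadjusted p under 0.05 there were 1454 genes, and the median log2 fold change over all genes was -0.01. In bulk libraries, more cells of a type and more RNA per cell cannot be told apart.

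The number called depended on single libraries. Leaving out ko IL1 replicates 1, 2, 3 or 4 gave 22, 22, 18 and 22 calls, and leaving out ko PBS replicates 1, 2, 3 or 4 gave 22, 9, 35 and 34. All 35 genes kept their direction in each of these fits, and 9 were called in every one of them: F2rl2, Milr1, Pld4, Tmem215, Cd53, Mfsd2b, Selp, Gucy1b1 and Clca3a1. Without ko PBS replicate 2, exactly these 9 were called, and none of the 11 lower genes. The other 26 lost their call without that library and, in part, without others. Among them were Il18rap and Col28a1 in 1 fit of the 8, Tgfbi, Sla, Fyb and Pcp4l1 in 2, Ccnd2 and Ffar2 in 3, Lcn2 and Lhcgr in 4, Chst2, Plk2, Fcer1g, Sult1a1, Fbp1 and Cyp26b1 in 5, Gata1, Gpr18, Dhx40 and Col18a1 in 6, and Ccnd1, Tent5a, Slc14a1, Lhfpl2 and 2810468N07Rik in 7. With Y-linked reads as a covariate 30 genes were called, all of them among the 35.

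**Figure D1:**
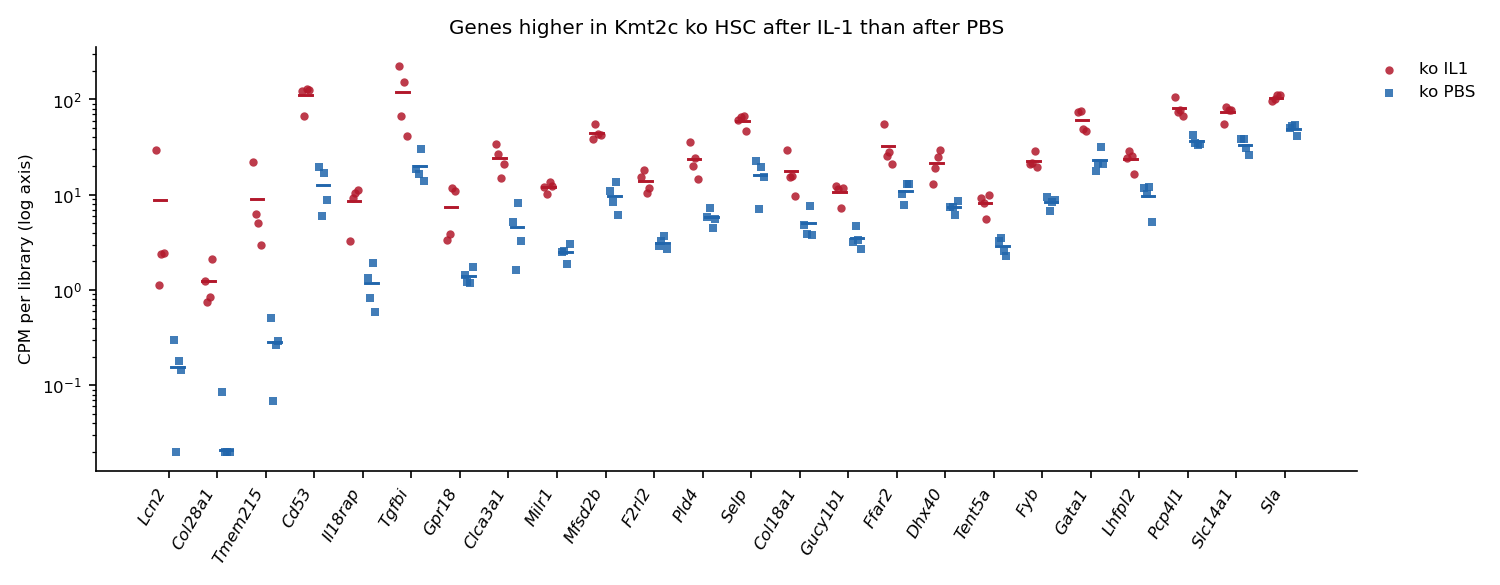
CPM per library (log axis) of the 24 genes higher in ko IL1 (red circles) than in ko PBS (blue squares), ordered by log2 fold change, with lines at the mean of 4 libraries. Values of 0 are drawn at the lowest level, and in every gene the 4 red points lie above the 4 blue ones.

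Several raised genes code for surface receptors or signalling proteins of leukocytes; they are put together here after their calls were known, and Fcer1g, a receptor chain of the same cells, fell. Cd53, a leukocyte tetraspanin, had 123, 66.6, 128 and 124 CPM in ko IL1 and 19.4, 5.93, 16.8 and 8.83 CPM in ko PBS libraries. Every ko IL1 library was more than 3 times above the highest ko PBS library, with replicate 2 the lowest of the treated ones. The log2 fold change was 3.11 ± 0.42 (SE, adjusted p = 0.00205). Il18rap, the accessory chain of the interleukin 18 receptor and a relative of the IL-1 receptor chains, had 3.27, 9.22, 10.4 and 11.3 CPM in ko IL1, against 1.35, 0.827, 1.93 and 0.584 CPM in ko PBS. The treated libraries were all higher, replicate 1 least so, and the log2 fold change was 2.85 ± 0.44 (adjusted p = 0.00663, and up to 0.0626 over 17 alternatives, the highest without ko PBS replicate 2). Milr1, an inhibitory immunoglobulin-like receptor first described on mast cells, had 12.2, 10.3, 13.6 and 12.2 CPM after IL-1 and 2.53, 2.55, 1.87 and 3.07 CPM after PBS, with narrow groups well apart. Its log2 fold change was 2.27 ± 0.30 (adjusted p = 0.00205).

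Gpr18, a G protein-coupled receptor of leukocytes, had 3.39, 3.88, 11.7 and 11 CPM in ko IL1 and 1.43, 1.21, 1.19 and 1.75 CPM in ko PBS. Replicates 3 and 4 of ko IL1 stood well above replicates 1 and 2, and the log2 fold change was 2.42 ± 0.48 (adjusted p = 0.0374). The adjusted p ranged up to 0.215 over the 17 alternatives. Ffar2, the receptor for short-chain fatty acids, had 55.3, 25.5, 28.1 and 21.1 CPM in ko IL1 against 10.3, 7.72, 13 and 12.8 CPM in ko PBS (log2 fold change 1.57 ± 0.28, adjusted p = 0.0197), with adjusted p up to 0.125 over the alternatives, the highest without ko PBS replicate 2. The adaptor genes Fyb and Sla, which act downstream of immune receptors, changed by 1.44 ± 0.25 and 1.08 ± 0.18 on the log2 scale (adjusted p = 0.0147 and 0.0147).

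The called genes Selp, F2rl2, Mfsd2b and Gata1 are known from megakaryocytes, platelets or red cells and are put together after their calls were known, with the counts over whole lineage lists after them. Selp, the platelet adhesion molecule P-selectin, had 60.7, 64.8, 67 and 47.2 CPM in ko IL1 and 22.4, 7.13, 19.7 and 15.3 CPM in ko PBS, and the lowest treated library was more than 2 times the highest vehicle library (log2 fold change 1.90 ± 0.29, adjusted p = 0.00663). F2rl2, a thrombin receptor of the protease-activated family, had 15.2, 18.1, 10.5 and 11.8 CPM in ko IL1 and 2.91, 3.24, 3.66 and 2.70 CPM in ko PBS. The 4 vehicle libraries were nearly level and the treated ones were all at least 2 times higher (log2 fold change 2.15 ± 0.28, adjusted p = 0.00205). Mfsd2b, the exporter of sphingosine 1-phosphate in red cells and platelets, had 38.4, 55.2, 43.5 and 42.9 CPM in ko IL1 against 11.1, 8.48, 13.5 and 6.06 CPM in ko PBS, again without overlap (log2 fold change 2.20 ± 0.31, adjusted p = 0.00341).

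Gata1, the transcription factor that drives erythroid and megakaryocyte differentiation, had 73.8, 75.5, 48.9 and 46.7 CPM in ko IL1 and 17.9, 21.4, 32.1 and 20.9 CPM in ko PBS. Replicates 1 and 2 of ko IL1 were the highest, and the log2 fold change was 1.41 ± 0.27 (adjusted p = 0.0321). Without ko PBS replicate 2 the adjusted p was 0.177, the highest of the 17 alternatives. Klf1, an erythroid factor, had 3.36, 7.67, 2.76 and 4.11 CPM in ko IL1 and 1.27, 0.724, 1.49 and 0.949 CPM in ko PBS and did not pass (log2 fold change 2.01 ± 0.42, adjusted p = 0.0581). Of the 23 tested genes in an erythroid list, Gata1 was the only one called, 11 had a positive log2 fold change and the median was -0.03. The summed level of the erythroid list was 5253 ± 703 CPM in ko IL1 and 6702 ± 1850 CPM in ko PBS (SD, n = 4 each), and the libraries overlapped. Most of that sum was Car2, which averaged 5068 CPM over the ko HSC libraries of both groups, so that it says little about the other members. Of the 25 tested megakaryocyte and platelet genes, F2rl2 and Selp were called and 15 were positive, with a median of 0.21. Over all 16538 genes tested, 35 (0.212%) were called and 8093 were positive. Itga2b, the platelet integrin chain CD41, had 109 ± 25.3 CPM in ko IL1 and 44.8 ± 16.6 CPM in ko PBS (SD, n = 4 each). Its log2 fold change was 1.28 ± 0.30 (adjusted p = 0.107).

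The raised genes for secreted and matrix proteins varied widely between libraries. Lcn2, the siderophore-binding protein lipocalin 2 that neutrophils release, had 29.3, 1.14, 2.38 and 2.47 CPM in ko IL1 and 0.295, 0, 0.178 and 0.146 CPM in ko PBS. Replicate 1 of ko IL1 was more than 10 times above the other 3 treated libraries, which were nonetheless all above the vehicle libraries. The log2 fold change was 5.83 ± 1.05 (adjusted p = 0.0238) with all libraries and 3.68 (adjusted p = 0.0485) without that replicate. The call was lost without any 1 of the ko PBS libraries (adjusted p = 0.0577, 0.0817, 0.0954 and 0.158 without replicates 1, 2, 3 and 4), and over all 17 alternatives the adjusted p reached 0.29. In untreated HSC of the other experiment Lcn2 ranged over 0.211 to 189 CPM in ko and 0.985 to 224 CPM in wt libraries.

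Tgfbi, an extracellular matrix protein induced by transforming growth factor beta, had 223, 66.4, 153 and 41.7 CPM in ko IL1 and 18.5, 16.6, 30.2 and 14.1 CPM in ko PBS. The treated libraries spread over more than 5-fold yet stayed above the vehicle ones, and the log2 fold change was 2.61 ± 0.40 (adjusted p = 0.00663, and at most 0.0659 over the alternatives, without ko PBS replicate 4). Col18a1, the collagen that yields endostatin, changed by 1.81 ± 0.36 on the log2 scale (adjusted p = 0.0433). Col28a1, another collagen gene, had 1.24, 0.748, 0.850 and 2.12 CPM in ko IL1 and 0.0844, 0, 0 and 0 CPM in ko PBS. With reads in 1 vehicle library only, no fold is given for it (adjusted p = 0.0147).

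Pld4, an endolysosomal exonuclease of single-stranded nucleic acids that is abundant in myeloid and plasmacytoid cells, had 36.0, 20.1, 24 and 14.7 CPM in ko IL1 and 5.87, 7.20, 4.49 and 5.58 CPM in ko PBS. The lowest treated library was at least 2 times the highest vehicle library (log2 fold change 2.04 ± 0.27, adjusted p = 0.00205). Tmem215, a transmembrane protein, had 22.1, 6.23, 5.07 and 2.94 CPM in ko IL1 against 0.506, 0.0689, 0.268 and 0.292 CPM in ko PBS, with replicate 1 of ko IL1 the highest (log2 fold change 5.01 ± 0.67, adjusted p = 0.00205). Clca3a1, of a family of calcium-dependent chloride channel regulators, had 34.5, 26.6, 14.8 and 20.8 CPM in ko IL1 and 5.15, 1.62, 8.15 and 3.28 CPM in ko PBS (log2 fold change 2.41 ± 0.39, adjusted p = 0.0105). Gucy1b1, a subunit of soluble guanylate cyclase, had 12.4, 11.5, 7.34 and 11.7 CPM after IL-1 and 3.21, 4.65, 3.39 and 2.70 CPM after PBS (log2 fold change 1.62 ± 0.25, adjusted p = 0.00663). None of these genes' groups overlapped. All 4 were called in each of the 8 fits that leave out a ko HSC library. The remaining raised genes had log2 fold changes of 1.55 (Dhx40, a helicase), 1.49 (Tent5a, a poly(A) polymerase), 1.29 (Lhfpl2), 1.17 (Pcp4l1) and 1.13 (Slc14a1, a urea transporter of red cells), with adjusted p from 0.0159 (Pcp4l1) to 0.0493 (Lhfpl2).

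Promoters of the called genes were read from RefSeq windows on build GRCm38.p6, which run from 250 bases before to 50 bases after each transcription start. Of the 35 genes, 29 had a window, 22 of them raised. The ETS-type word GAGGAAGT, as bound by PU.1, was found on either strand in 5 of 29 (17.2%: Il18rap, Cd53, Pld4, Sult1a1 and Fbp1), against 3.28% of all 27025 genes with a window, taking 1 window a gene. The C/EBP word TTGCNNAA was in 3 of 29 (10.3%: Lcn2, Ffar2 and F2rl2) against 10.8%, the GATA word AGATAA in 3 (10.3%) against 11.4%, the STAT word TTCNNNGAA in 1 (3.45%) against 8.47%, the AP-1 word TGAGTCA in 1 against 5.17%, the NF-kB motif in 1 (Cyp26b1, a lowered gene) against 4.35% and the sterol regulatory element in 0 against 1.52%. No match overlapped one of another motif in these windows, and no binding was measured. Shown 5′ to 3′ on the gene's strand, since these genes are described above, with the match in capitals (in Cd53 on the opposite strand), are the 3 raised genes with the ETS word and Lcn2 with the C/EBP word, at chr3:106790100-106790399 (minus strand), chr1:40515112-40515411 (plus), chr12:112760405-112760704 (plus) and chr2:32387690-32387989 (minus).
Cd53: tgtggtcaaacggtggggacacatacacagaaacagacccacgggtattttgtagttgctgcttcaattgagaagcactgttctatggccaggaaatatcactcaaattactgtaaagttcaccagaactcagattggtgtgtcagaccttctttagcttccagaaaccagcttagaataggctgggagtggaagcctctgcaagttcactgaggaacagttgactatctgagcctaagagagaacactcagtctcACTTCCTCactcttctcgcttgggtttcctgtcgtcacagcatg
Il18rap: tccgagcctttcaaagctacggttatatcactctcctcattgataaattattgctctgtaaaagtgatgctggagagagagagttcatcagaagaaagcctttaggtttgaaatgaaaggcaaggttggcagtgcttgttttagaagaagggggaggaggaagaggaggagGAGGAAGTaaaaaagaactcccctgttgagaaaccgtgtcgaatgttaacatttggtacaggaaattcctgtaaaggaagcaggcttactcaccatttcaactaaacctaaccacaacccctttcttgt
Pld4: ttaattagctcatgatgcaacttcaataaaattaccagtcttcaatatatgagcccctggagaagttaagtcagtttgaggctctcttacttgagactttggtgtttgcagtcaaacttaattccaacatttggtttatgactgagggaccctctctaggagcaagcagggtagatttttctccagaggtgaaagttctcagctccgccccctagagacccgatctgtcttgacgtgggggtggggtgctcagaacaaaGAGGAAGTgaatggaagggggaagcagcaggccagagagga
Lcn2: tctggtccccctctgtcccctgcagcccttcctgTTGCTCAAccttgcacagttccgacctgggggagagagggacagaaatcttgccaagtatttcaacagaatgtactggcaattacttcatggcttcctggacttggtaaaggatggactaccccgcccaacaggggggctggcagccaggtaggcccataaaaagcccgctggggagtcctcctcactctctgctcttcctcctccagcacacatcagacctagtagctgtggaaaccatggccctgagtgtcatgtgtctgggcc

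**Figure D2:**
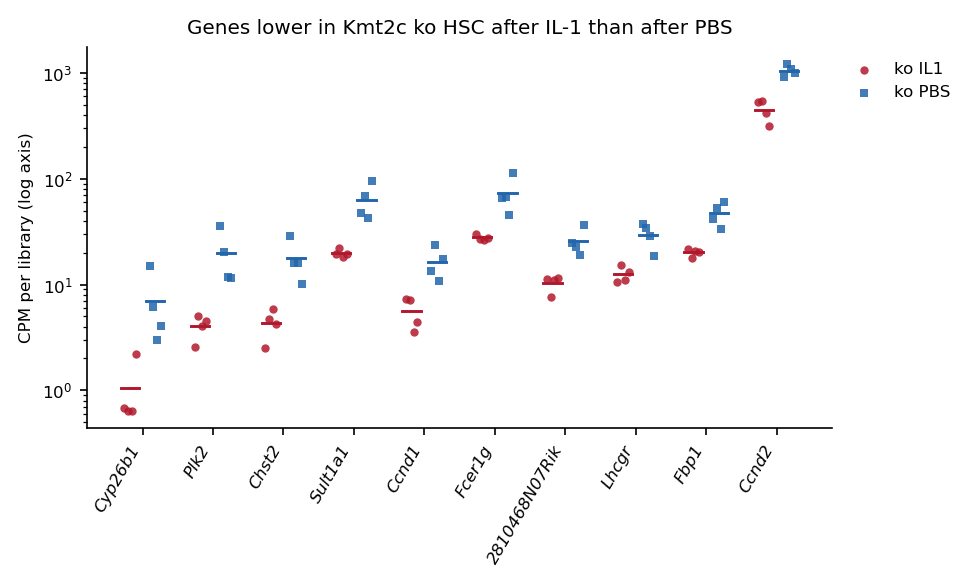
CPM per library (log axis) of 10 of the 11 genes lower in ko IL1 (red circles) than in ko PBS (blue squares), ordered by log2 fold change, with lines at the mean of 4 libraries. The largest drop is that of Cyp26b1, and Ccnd2 lies between 313 and 539 CPM after IL-1.

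Both called members of the list of D-type cyclins and cell cycle brakes fell. Ccnd2, which binds Cdk4 and Cdk6 to start G1 progression, had 531, 539, 421 and 313 CPM in ko IL1 and 918, 1209, 1103 and 995 CPM in ko PBS. The highest treated library was well under the lowest vehicle library, and the log2 fold change was -1.23 ± 0.22 (adjusted p = 0.0194). Ccnd1, its paralog, had 7.25, 7.17, 3.54 and 4.42 CPM in ko IL1 against 13.5, 23.4, 10.7 and 17.4 CPM in ko PBS (log2 fold change -1.54 ± 0.30, adjusted p = 0.0342). Of the 27 tested members of that list these were the only ones called, and 16 had a positive log2 fold change. Among all 16538 genes tested, 35 (0.212%) were called and 8093 were positive. The inhibitor Cdkn1c (p57) had 11.5, 14.2, 11.2 and 15.6 CPM in ko IL1 and 22.0, 16.5, 15.7 and 27.1 CPM in ko PBS without overlap, and did not pass (log2 fold change -0.63 ± 0.25, adjusted p = 0.488). Cdkn1a (p21) had a log2 fold change of 0.37 ± 0.34 (adjusted p = 0.749). Over the 17 alternatives the adjusted p reached 0.0916 for Ccnd2, without ko IL1 replicate 3, and 0.164 for Ccnd1, without ko PBS replicate 2.

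Plk2, a polo-like kinase of the stress response, had 2.58, 5.01, 4.08 and 4.55 CPM in ko IL1 and 35.5, 20.5, 11.7 and 11.4 CPM in ko PBS. Vehicle replicate 1 was the highest, and every vehicle library was more than 2 times the highest treated one (log2 fold change -2.28 ± 0.40, adjusted p = 0.018). Cyp26b1, which degrades retinoic acid and in mice helps to keep HSC dormant, had 0.684, 0.637, 0.637 and 2.21 CPM in ko IL1 against 14.9, 6.13, 3.00 and 4.05 CPM in ko PBS (log2 fold change -2.78 ± 0.54, adjusted p = 0.0334). Replicate 4 was the highest of its treated libraries and replicate 1 of its vehicle libraries. Lhcgr, the luteinizing hormone receptor, had 10.6, 15.2, 11.1 and 13.1 CPM in ko IL1 and 37.0, 34.5, 28.7 and 18.8 CPM in ko PBS (log2 fold change -1.25 ± 0.21, adjusted p = 0.0147).

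Fcer1g, the signalling chain shared by several Fc receptors, had 30.4, 26.7, 26.6 and 27.8 CPM in ko IL1 and 65.8, 67, 45.5 and 114 CPM in ko PBS, so that the treated libraries were nearly level and replicate 4 of ko PBS was the highest (log2 fold change -1.39 ± 0.25, adjusted p = 0.018). Sult1a1, a cytosolic sulfotransferase, had 19.5, 22.3, 18.2 and 19.3 CPM in ko IL1 and 47.9, 69.0, 42.2 and 95.6 CPM in ko PBS, with the same vehicle library the highest (log2 fold change -1.68 ± 0.30, adjusted p = 0.0192). Without ko PBS replicate 4 both genes remained called. Chst2, another sulfotransferase, changed by -2.03 ± 0.35 on the log2 scale (adjusted p = 0.0147), Fbp1, a gluconeogenic phosphatase, by -1.23 ± 0.22 (adjusted p = 0.0194), and 2810468N07Rik, a gene with no described role, by -1.31 ± 0.26 (adjusted p = 0.0357).

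The IL-1 receptor and its signalling chain were examined as a list of 26 genes, 23 of them tested. Il18rap was the only member called, 13 had a positive log2 fold change and the median was 0.08. Among all 16538 genes tested, 35 (0.212%) were called and 8093 were positive. Il1r1, the signalling receptor itself, had 8.37, 7.31, 11.8 and 8.70 CPM in ko IL1 and 3.33, 1.59, 4.16 and 3.54 CPM in ko PBS. The groups did not overlap, the log2 fold change was 1.52 ± 0.37 and the adjusted p was 0.131 (0.00833 to 0.468 over the 17 alternatives, under 0.05 in 4 of them). Il1r2, the decoy receptor, had 0.249, 1.74, 2.38 and 2.77 CPM in ko IL1 against 2.79, 6.0, 3.51 and 6.5 CPM in ko PBS (log2 fold change -1.40 ± 0.52, adjusted p = 0.448). Il1rap had 22.9, 23.3, 30.4 and 21.5 CPM in ko IL1 and 29.96, 17.4, 23.2 and 10.5 CPM in ko PBS, and Myd88 had 65.4, 54.5, 69.1 and 51.5 and 47.6, 51.5, 56.8 and 56.0 CPM in those groups. Both ranges overlapped (log2 fold changes 0.27 ± 0.26 and 0.18 ± 0.16).

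None of the 24 tested NF-kB subunits and feedback genes was called, with 18 positive and a median of 0.16 (-0.01 with 11 positive without ko PBS replicate 4). Nfkbia, the inhibitor IkB alpha, had 133, 173, 125 and 187 CPM in ko IL1 and 123, 157, 113 and 128 CPM in ko PBS (log2 fold change 0.25 ± 0.17, adjusted p = 0.687). Tnfaip3, the feedback deubiquitinase A20, had 4.20, 4.24, 4.74 and 5.11 CPM in ko IL1 against 3.92, 3.24, 3.18 and 2.74 CPM in ko PBS, and Nfkb1 averaged 159 ± 11.1 CPM in ko IL1 and 112 ± 17.7 CPM in ko PBS (SD, n = 4 each). Neither passed (adjusted p = 0.629 and 0.323), although their groups did not overlap. In the list of JAK-STAT targets no member was called of 23 tested. Socs3, which feeds back on cytokine receptors, had 30.7, 14.1, 13.8 and 10.2 CPM in ko IL1 and 5.06, 2.89, 7.52 and 1.09 CPM in ko PBS, without overlap (log2 fold change 2.05 ± 0.52, adjusted p = 0.15, and 0.00765 to 0.501 over the alternatives, under 0.05 in 2). Of 19 tested acute-phase and antimicrobial genes Lcn2 alone was called, and of 17 chemokines and their receptors none. By comparison, 35 of all 16538 genes tested (0.212%) were called, 8093 were positive and 776 (4.69%) had groups that did not overlap. A list of this size with 0 calls is therefore not shown to be unchanged.

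Most granulocyte and monocyte genes had higher means after IL-1 and none of those passed the test. Of 30 tested, 21 had a positive log2 fold change, 7 had groups that did not overlap and the median was 0.29, against 8093 positive and 776 without overlap among all 16538 genes tested and a median of -0.01. The only one called was Fcer1g, which fell. Itgam, the integrin chain CD11b, had 18.4, 17.4, 25.5 and 12.3 CPM in ko IL1 and 6.37, 5.44, 6.45 and 0.657 CPM in ko PBS (log2 fold change 1.96 ± 0.49, adjusted p = 0.147). Ms4a3, a marker of granulocyte-monocyte progenitors, averaged 2.28 ± 0.536 and 0.488 ± 0.316 CPM in those groups (log2 fold change 2.23 ± 0.49, adjusted p = 0.0709), and Plac8 188 ± 56.7 and 79.4 ± 23.5 CPM (SD, n = 4 each, log2 fold change 1.24 ± 0.30, adjusted p = 0.121). Primary granule genes differed widely in level. Prtn3, proteinase 3, had 480.0, 550.5, 516.7 and 616.6 CPM in ko IL1 and 490.8, 511.9, 403.2 and 651.0 CPM in ko PBS (log2 fold change 0.07 ± 0.18, adjusted p = 0.916). Mpo had 2.49, 2.77, 1.58 and 3.42 CPM in ko IL1 and 6.67, 5.44, 3.09 and 7.48 CPM in ko PBS, and Elane 1.77, 1.02, 1.32 and 1.99 CPM in ko IL1 and 0.295, 0.620, 0.446 and 1.02 CPM in ko PBS (adjusted p = 0.451 and 0.315). The factors Spi1 (PU.1) and Cebpb had log2 fold changes of 0.54 ± 0.45 and -0.85 ± 0.48 with overlapping groups. Called were 0 of 27 tested myeloid transcription factors, beside 35 of all 16538 genes tested (0.212%).

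Genes that mark the 4 untreated wild-type populations of the separate experiment were followed in ko HSC. Of the 200 genes highest in untreated wt HSC, 57 had a positive log2 fold change in ko HSC and the median was -0.36, with Clca3a1 called higher and Lhcgr and Cyp26b1 called lower. Of the 123 tested genes highest in the population labelled pGM, 83 were positive and the median was 0.59, with Mfsd2b and Gata1 called higher. The median was 0.00 for 165 genes highest in HPC and 0.14 for 124 highest in GMP. Of all 16538 genes tested, 8093 were positive, 35 (0.212%) were called and the median was -0.01. In wt HSC the medians were -0.09 for the HSC set (93 positive), 0.39 for pGM (80 positive), 0.35 for HPC and 0.30 for GMP. Without the library labelled wt IL1 replicate 1 they were -0.24, 0.61, 0.46 and 0.28. In ko HSC, leaving out each library in turn kept the HSC median between -0.37 and -0.23 and the pGM median between 0.55 and 0.67. The HSC regulators Hlf and Mecom had log2 fold changes of -0.11 ± 0.20 and -0.10 ± 0.21, and Procr, an endothelial protein C receptor used to sort HSC, had 43.2, 51.0, 55.3 and 67.2 CPM in ko IL1 and 69.1, 97.7, 66.7 and 108 CPM in ko PBS (log2 fold change -0.66 ± 0.22, adjusted p = 0.352).

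**Figure D3:**
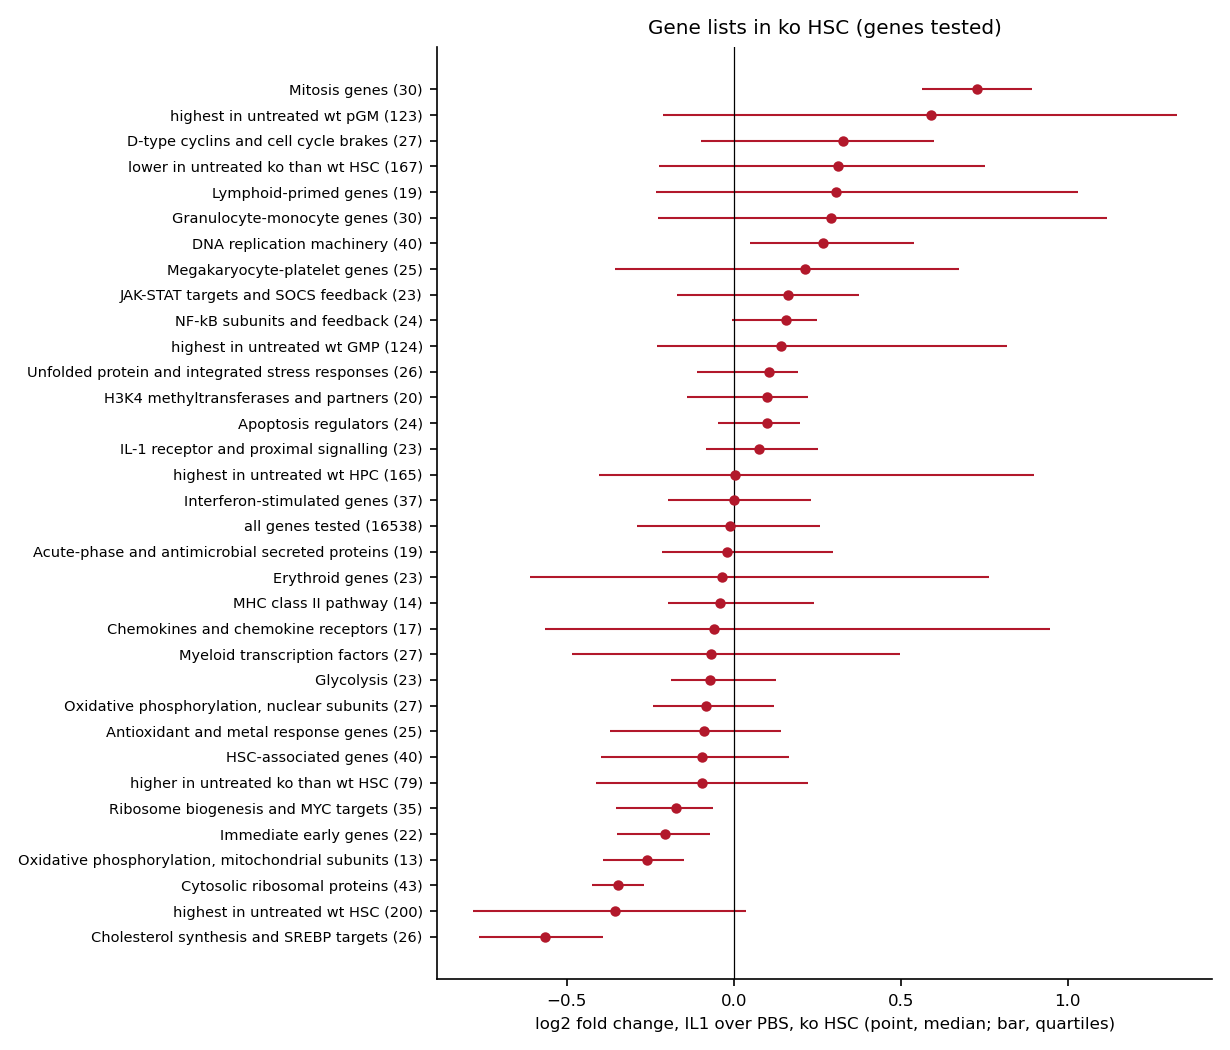
Log2 fold change of ko IL1 over ko PBS HSC for each gene list other than the cell markers, as the median (point) and quartiles (bar) of its tested members, whose number stands in brackets. Mitosis genes lie highest (median 0.73) and cholesterol synthesis genes lowest (median -0.56), and all genes tested have a median of -0.01.

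Mitosis genes stood higher in ko IL1 as a list, though none passed the test alone: 29 of 30 had a positive log2 fold change, 8 had groups that did not overlap and the median was 0.73, beside the 8093 positive and 776 without overlap (4.69%) of all 16538 genes. Anln, a scaffold of cytokinesis, had 14.4, 10.3, 17.8 and 17.2 CPM in ko IL1 and 6.5, 5.07, 6.84 and 7.55 CPM in ko PBS (log2 fold change 1.2 ± 0.32, adjusted p = 0.186). Bub1, a kinase of the spindle checkpoint, had 18.3, 15.9, 30.8 and 16.5 CPM in ko IL1 against 11.8, 5.13, 6.60 and 11.3 CPM in ko PBS (adjusted p = 0.203). Mki67 had 28.2, 31.3, 32.8 and 14 CPM in ko IL1 and 14, 10.9, 11 and 24.3 CPM in ko PBS, and its groups overlapped. Summed over the 30 genes, the level was 1203, 1024, 1527 and 1067 CPM in ko IL1 and 693, 589.9, 513 and 1272 CPM in ko PBS, so that replicate 4 of ko PBS lay among the treated libraries. Without that library the median was 1.07, with 30 of 30 positive and 1 called. Of 40 genes of the DNA replication machinery 31 were positive, with a median of 0.27 and 0 called, beside 35 (0.212%) of all 16538 genes tested.

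Cholesterol synthesis genes stood lower: 24 of 26 had a negative log2 fold change, 3 had groups that did not overlap (4.69% of all genes did), the median was -0.56 and none was called (0.212% of all genes were). Sc5d, a late enzyme of the pathway, had 44.6, 54.5, 62.6 and 48.6 CPM in ko IL1 and 65.5, 72.3, 113 and 107 CPM in ko PBS (log2 fold change -0.77 ± 0.21, adjusted p = 0.196). Summed over the list, the level was 1769.7, 1708, 2117 and 1348 CPM in ko IL1 and 1977, 2059.7, 3364 and 2941 CPM in ko PBS, and the sums overlapped. The median stayed between -0.71 and -0.41 when each ko HSC library was left out. Cytosolic ribosomal protein genes had a median of -0.35 with 41 of 43 negative and 0 called, which became 0.01 with 24 positive without ko PBS replicate 4, so that this library decides their direction. The 13 mitochondrially encoded subunits had a median of -0.26, and 0.47 without the same library. In replicate 4 of ko IL1 and of ko PBS mitochondrial genes made up 3.78% and 3.54% of the scaled library total, against 0.440% to 1.18% in the other 6.

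Markers of other cells that a sort could carry along were summed in both groups. The summed CPM of 9 mature neutrophil markers lay between 6.23 and 13.4 in ko IL1 and between 8.40 and 12.3 in ko PBS. For 8 macrophage markers it lay between 18.3 and 26.2 in ko IL1 and between 20.9 and 38.5 in ko PBS, and for 6 mast cell and basophil markers between 0.378 and 2.85 in ko IL1 and between 0.365 and 2.55 in ko PBS. For 10 lymphocyte markers it lay between 227 and 256 in ko IL1 and between 168 and 288 in ko PBS, and for 8 stromal and endothelial markers between 57.7 and 90.0 in ko IL1 and between 60.9 and 105 in ko PBS. Each pair of ranges overlapped and 0 of their tested members were called, beside 0.212% of all genes tested. No read of Mmp8 (neutrophils), Mcpt8 (basophils), Cd3e or Cd3g (T cells) was found in the 8 libraries, and most of the lymphocyte sum was Cd79b and Nkg7. The 3 tested mast cell and basophil genes had a median log2 fold change of 4.54 at these low levels, and the part of such cells in the rise of Milr1 was not tested.

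Wild-type HSC, which share no library with the ko HSC, were used to see how far the ko response was shared. In wt HSC 33 genes were called (0.2%), 26 higher (0.157%) and 7 lower (0.0423%). The overlap was 12 genes, 34.3% of the ko calls and 36.4% of the wt calls, all in the same direction: Selp, Pcp4l1, Gata1, Gucy1b1, Col28a1, Gpr18, Dhx40, Milr1, Mfsd2b and Pld4 rose and Ccnd2 and Lhcgr fell in both. Of the 35 genes called in ko HSC, 34 had the same sign in wt HSC and 31 an unadjusted p under 0.05 there by edgeR, as did 1294 of all 16538 genes tested. The 24 raised genes had a median log2 fold change of 1.60 in wt HSC, against 1.97 in ko HSC that chose them, and the 11 lowered genes -1.18 against -1.39. A test of the difference in response, ko minus wt, called 0 of 16538 genes (756 at an unadjusted p under 0.05, and 1 adjusted call by DESeq2), and likewise 0 without the library labelled wt IL1 replicate 1. Without that library 38 genes were called in wt HSC, 12 of them among the 35 (with Cd53 and Slc14a1 in place of Gata1 and Lhcgr), the same sign was seen for 35 of the 35, and the medians in wt HSC were 1.64 and -1.15.

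**Figure D4:**
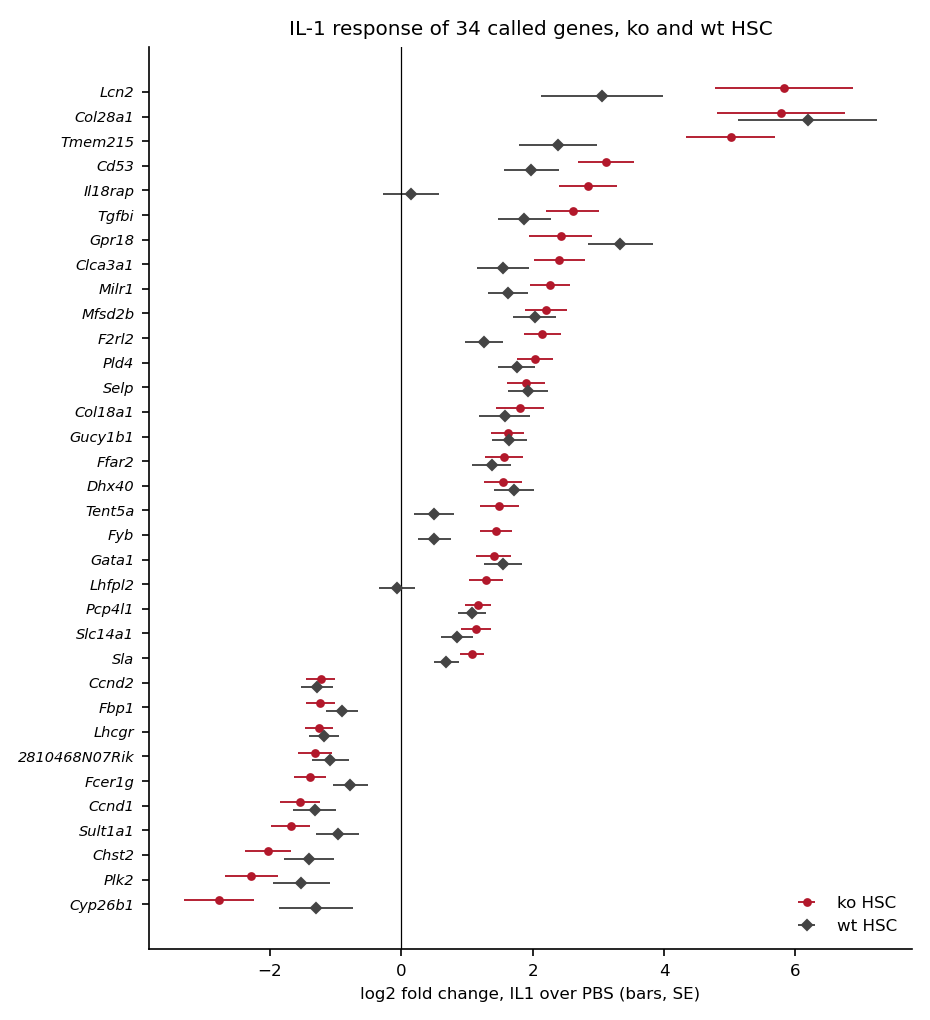
Log2 fold change of IL1 over PBS (bars, SE) of 34 of the 35 genes called in ko HSC, in ko HSC (red circles) and in wt HSC (grey diamonds). The genes were chosen by the red values, and Lhfpl2 is the gene whose grey point lies on the other side of 0. The fitted value of Col28a1 depends on the prior count, since most PBS libraries have no read.

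For Selp the wt response was of nearly the same size, 58.2, 83.2 and 74.1 CPM in wt IL1 and 27.8, 17.2, 14.5 and 15.6 CPM in wt PBS (log2 fold change 1.94 ± 0.31, ko minus wt -0.04 ± 0.42, and 2.06 in wt without the library labelled replicate 1). Ccnd2 had 439, 253 and 242 CPM in wt IL1 and 728, 783, 748 and 770.3 CPM in wt PBS (log2 fold change -1.28 ± 0.24, ko minus wt 0.05 ± 0.32, and -1.62 in wt without that library). Milr1 had 15.5, 48.7 and 34.0 CPM in wt IL1 and 14, 7.76, 11 and 9.84 CPM in wt PBS, and Pld4 22.7, 21.2 and 32.1 and 9.70, 5.48, 7.17 and 7.62 CPM in those groups (log2 fold changes 1.62 ± 0.30 and 1.76 ± 0.28). The treated libraries of both genes were all above the vehicle ones, and both passed without the library labelled wt IL1 replicate 1 (log2 fold changes 1.96 and 1.82, adjusted p = 0.0021 and 0.0173). Gata1 had 65.6, 66.7 and 54.5 CPM in wt IL1 and 29.1, 18, 26.4 and 11.5 CPM in wt PBS (log2 fold change 1.55 ± 0.29, adjusted p = 0.0272), and without that library it did not pass (1.51, adjusted p = 0.0647).

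F2rl2 had 13.8, 28.6 and 13.3 CPM in wt IL1 and 5.74, 9.03, 9.29 and 7.01 CPM in wt PBS, a log2 fold change of 1.26 ± 0.29 that did not pass (adjusted p = 0.088, ko minus wt 0.89 ± 0.40; without the library labelled wt IL1 replicate 1 the wt value was 1.43, adjusted p = 0.0691, and the difference 0.72 ± 0.42). Cd53 did not pass in wt HSC either (log2 fold change 1.98 ± 0.42, adjusted p = 0.0607), and passed without the library labelled wt IL1 replicate 1 (2.41, adjusted p = 0.00509). Il18rap had 9.33, 26.3 and 30.9 CPM in wt IL1 and 24.9, 19.2, 14.3 and 21.3 CPM in wt PBS, with overlap and a log2 fold change of 0.15 ± 0.42. Its ko minus wt difference of 2.70 ± 0.61 did not pass (adjusted p = 0.847). Without the library labelled wt IL1 replicate 1 the wt log2 fold change of Il18rap was 0.52 and the difference 2.33 ± 0.58 (adjusted p = 0.848). Lhfpl2, the gene with the opposite sign in wt HSC, had a difference of 1.35 ± 0.38 (adjusted p = 0.847). Without that library its wt log2 fold change was 0.10, against -0.06 with it, and the difference was 1.19 ± 0.41 (adjusted p = 0.848).

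Gene lists were set side by side in both genotypes. Mitosis genes had a median log2 fold change of 0.73 in ko HSC and 0.41 in wt HSC, where 29 of 30 were positive; without the library labelled wt IL1 replicate 1 the wt median was 0.08 with 19 positive. DNA replication genes had medians of 0.27 in ko and -0.05 in wt HSC (-0.30 without that library), and no member of either list was called in wt HSC or for the difference in these 2 fits. Cholesterol synthesis genes were negative in both, with medians of -0.56 in ko and -0.63 in wt HSC and 25 of 26 negative in wt (median -0.71 without the library labelled wt IL1 replicate 1). Cytosolic ribosomal protein genes had medians of -0.35 in ko and 0.34 in wt HSC (0.45 without that library), and the ko value rests on ko PBS replicate 4 as given above.

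Wfdc17, a whey acidic protein homolog of activated macrophages that was singled out after its values were seen, was the only gene whose difference in response DESeq2 called. It had 15.7, 27.7, 54.0 and 56.6 CPM in ko IL1, 12.6, 8.89, 16.5 and 19.9 CPM in ko PBS, 76.3, 116 and 125 CPM in wt IL1 and 4.81, 5.85, 3.67 and 5.92 CPM in wt PBS. The ko groups overlapped, while every wt IL1 library was more than 10 times above every wt PBS library. The log2 fold change was 1.41 ± 0.34 in ko HSC (adjusted p = 0.119) and 4.39 ± 0.39 in wt HSC (adjusted p = 1.81e-05). Without the library labelled wt IL1 replicate 1 the wt value of Wfdc17 was 4.57 ± 0.41 and the difference -3.16 ± 0.51 (adjusted p = 0.143). With all libraries it was -2.98 ± 0.50 (adjusted p = 0.165 by edgeR and 0.000146 by DESeq2, with edgeR adjusted p of 0.0172 without a filter, 0.00988 with all 27 libraries and 0.0197 with the Y-linked covariate). Reads may be shared with its neighbour Wfdc18, whose log2 fold changes were -0.19 ± 0.47 in ko and 2.62 ± 0.52 in wt HSC (2.70 ± 0.58 in wt without that library).

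The metal-binding metallothionein Mt1 and the haemoglobin gene Hbb-bt, also picked after their values were seen, were called in wt and not in ko HSC. Mt1 had 42.0, 49.97, 39.6 and 44.7 CPM in ko IL1, 32.8, 32.8, 22.8 and 50.7 CPM in ko PBS, 69.5, 34.8 and 22.5 CPM in wt IL1 and 8.42, 4.65, 10.1 and 9.69 CPM in wt PBS. The ko PBS libraries already lay well above the wt PBS libraries, and ko IL1 overlapped ko PBS (log2 fold change 0.34 ± 0.31, adjusted p = 0.743, in ko and 2.37 ± 0.34, adjusted p = 0.00564, in wt HSC). Hbb-bt had 347, 306, 493 and 479.7 CPM in ko IL1, 129, 97.7, 103 and 368 CPM in ko PBS, 553, 518 and 598 CPM in wt IL1 and 69.2, 63.2, 49.5 and 66.8 CPM in wt PBS, and reads may be shared with other haemoglobin genes. Its log2 fold change was 1.22 ± 0.33 in ko (adjusted p = 0.196) and 3.16 ± 0.37 in wt HSC (adjusted p = 0.000521). The differences in response were -2.02 ± 0.45 and -1.94 ± 0.48, and neither passed (adjusted p = 0.847 for both). Without the library labelled wt IL1 replicate 1 the wt log2 fold changes were 1.80 ± 0.31 for Mt1 (adjusted p = 0.0173) and 3.16 ± 0.40 for Hbb-bt (adjusted p = 0.00142).

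Some of the genes that IL-1 raised in ko HSC were low in ko HSC without any treatment. In the separate experiment with no treatment, 167 of 13806 tested genes (1.21%) were lower and 79 (0.572%) were higher in ko than in wt HSC. Of the 24 genes raised by IL-1 in ko HSC, 8 (33.3%) were among the 167, which is 4.79% of those 167: Cd53, Il18rap, Tgfbi, Milr1, Ffar2, Fyb, Tent5a and Slc14a1. Only 22 of the 24 were tested in untreated HSC, and the others could be in neither set. None of the 24 was among the 79, and none of the 11 lowered genes was in either set. The ko and wt groups of that experiment differ in Vav-Cre as well as in Kmt2c. Its HSC libraries were also unlike those of the IL-1 experiment in granule genes. Mpo averaged 523 ± 388 CPM in untreated ko HSC and 5.67 ± 1.91 CPM in ko PBS HSC (SD, n = 4 each). Elane averaged 277 ± 224 and 0.596 ± 0.314 CPM in those groups. What this difference does to the sets above was not tested.

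In untreated HSC Il18rap ranged over 1.01 to 3.00 CPM in ko and 16.7 to 18.9 CPM in wt libraries (log2 fold change, ko over wt, -3.12 ± 0.35). After IL-1 the ko mean was 42.9% of the wt PBS mean, against 5.89% after PBS. Fyb ranged over 4.69 to 7.17 CPM in untreated ko and 42.7 to 56.9 CPM in untreated wt HSC, and its ko mean was 51.9% of the wt PBS mean after IL-1 and 19.1% after PBS. Cd53 ranged over 14 to 47.6 CPM in ko and 96.8 to 139 CPM in wt. Its mean in ko IL1 was 101% of the wt PBS mean, against 11.7% in ko PBS, and wt libraries had 131, 581 and 581 CPM after IL-1 and 115, 125, 113 and 83.7 CPM after PBS. The same percentages were 113% and 23.5% for Milr1, 105% and 48.0% for Slc14a1, 89.4% and 31.7% for Tent5a, 217% and 73.3% for Ffar2 and 312% and 51.1% for Tgfbi. The ko IL1 mean was below the wt IL1 mean, taken over all its libraries, for each of these genes. These means were 8.54 and 22.2 CPM for Il18rap, 22.7 and 62.2 for Fyb, 110 and 431 for Cd53 and 12.1 and 32.7 for Milr1. For Slc14a1 they were 73.8 and 126 CPM, for Tent5a 8.19 and 12.98, for Ffar2 32.5 and 39.03 and for Tgfbi 121 and 142. The ko IL1 and wt IL1 libraries overlapped for all but Fyb, Cd53 and Milr1. For Il18rap, Tent5a and Slc14a1 the overlap rested on the library labelled wt IL1 replicate 1 alone (9.33, 8.23 and 72.4 CPM). The other wt IL1 libraries had 26.3 and 30.9, 14.6 and 16.1, and 156 and 150 CPM of these genes. All of those lay above the highest ko IL1 library (11.3, 9.87 and 83.7 CPM). For Il1r1, which did not pass in the ko response, untreated libraries ranged over 1.89 to 3.25 CPM in ko and 7.95 to 8.60 CPM in wt HSC (log2 fold change -1.75 ± 0.28, adjusted p = 0.00192).

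**Figure D5:**
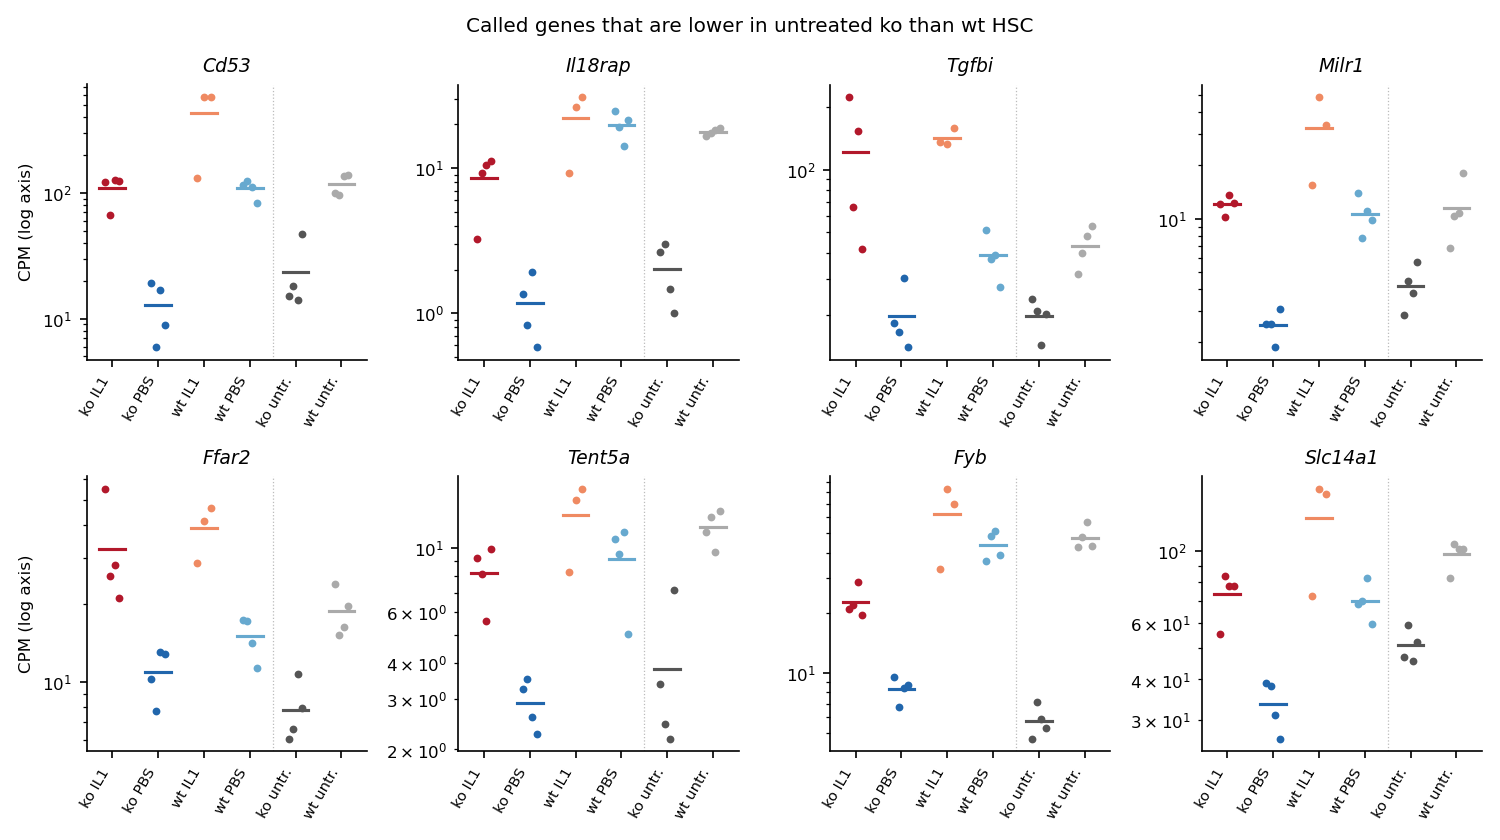
CPM per library (log axes) of the 8 genes raised by IL-1 in ko HSC and lower in untreated ko than wt HSC, with lines at group means. The dotted line parts the IL-1 experiment (ko IL1, ko PBS, wt IL1, wt PBS) from the untreated one (ko untr., wt untr.), which was scaled separately. In each gene ko IL1 lies above ko PBS.

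Over all 167 genes lower in untreated ko HSC, 115 had a positive log2 fold change after IL-1 in ko HSC. The median was 0.31, 8 were called (4.79%) and 33 had groups that did not overlap. Of all 16538 genes tested, 8093 were positive, 35 were called (0.212%) and 776 had groups that did not overlap (4.69%). When each ko HSC library was left out, the median of the 167 stayed between 0.24 and 0.37. Then 2 to 7 of the 167 were called (2 without ko PBS replicate 2). In wt HSC 75 of the 167 were positive with a median of -0.07. Without the library labelled wt IL1 replicate 1, whose Kmt2c level lies in the ko range, 111 were positive with a median of 0.22. The median difference, ko minus wt, was then 0.00, against 0.34 with all libraries. The 79 genes higher in untreated ko HSC had a median of -0.10 in ko HSC with 0 called.

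The HPC of ko mice, whose libraries are also separate, responded to the same dose with 58 of 17511 genes called (0.331%), 30 higher (0.171%) and 28 lower (0.16%). Of the 35 genes called in ko HSC, 29 had the same sign in ko HPC and 3 were called there, Pld4, Gpr18 and Fbp1. Pld4 had 395, 274 and 241 CPM in ko IL1 HPC and 59.9, 78.0 and 86.8 CPM in ko PBS HPC (log2 fold change 2.02 ± 0.31, adjusted p = 0.0021). Gpr18 had 36.7, 71.3 and 65.7 CPM in ko IL1 HPC against 11.1, 16 and 16.3 CPM in ko PBS HPC, and Fbp1 9.47, 7.68 and 12.1 CPM in ko IL1 HPC against 29.3, 29.5 and 25.6 CPM in ko PBS HPC, with no overlap in either (log2 fold changes 2.00 ± 0.45 and -1.53 ± 0.24).

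Cd53 had 642, 869 and 895 CPM in ko IL1 HPC and 504, 524 and 632 CPM in ko PBS HPC, so that its level there was high without IL-1 (log2 fold change 0.54 ± 0.38). Its response in HSC minus HPC was 2.57 ± 0.52 (adjusted p = 0.168). F2rl2 and Gucy1b1 had HPC log2 fold changes of 0.02 ± 0.34 and -0.24 ± 0.31, and HSC minus HPC differences of 2.13 ± 0.46 and 1.86 ± 0.41 (adjusted p = 0.168 and 0.168). No gene was called for a difference in response between ko HSC and ko HPC by edgeR (888 at an unadjusted p under 0.05), and 20 were by DESeq2. Lcn2 had 84.1, 8.12 and 15.9 CPM in ko IL1 HPC and 0.140, 0.330 and 0.891 CPM in ko PBS HPC, and replicate 1 was the highest treated library there as in HSC.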

How the data were processed

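RNA-seq read counts per gene were used as deposited. The authors' counts are whole numbers of reads per gene without normalization, and STAR and featureCounts 1.4.5 (Subread) are named per the submitters' processing notes. The genome build and the strand setting are not given here, so reads of overlapping, antisense or near-identical genes (Wfdc17 and Wfdc18, the haemoglobin genes) cannot be separated. Of 41388 mouse gene IDs, 40340 were in GENCODE M21, which gave the symbols; IDs outside it held 0.113% of reads in the IL-1 experiment. RNA preparation used RNeasy micro plus columns and SMARTer-type cDNA synthesis per the labels.

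The 15 HSC libraries of the IL-1 experiment (18.6 M to 40.3 M counts) were fitted together with edgeR 4.0.16 in R 4.3.3 (filterByExpr with a minimum count of 10 and total of 15, TMM scaling, robust quasi-likelihood F test). A call is an adjusted p (Benjamini-Hochberg, all genes tested) under 0.05, from edgeR unless another tool is named. The comparisons with HPC came from 1 fit of all 27 libraries, and untreated HSC from a fit of their own. CPM are after TMM scaling within the fit. Log2 fold changes are given with an SE worked back from the edgeR test, as the absolute log2 fold change over the square root of F. It is unsteady for small changes and few reads. For the ko minus wt difference of Col28a1 it was 1.14, and 0.42 without the library labelled wt IL1 replicate 1. The tests were checked on simulated data. Alternatives were DESeq2 1.42.0, limma 3.58.1 voom with sample weights, RLE scaling, no filter, a replicate block, all 27 libraries, only the 8 ko HSC libraries, a Y-linked covariate, and each library left out. Libraries left out of the wt and HPC comparisons were varied likewise. No 2 HSC libraries of the same group in the IL-1 experiment were copies of one another. Pairs across groups, HPC libraries and untreated libraries were not compared in this way.

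The genes named are Kmt2c, up to 12 called protein-coding genes in each direction by size with at least 5 CPM and no overlap, called list members, and a panel of IL-1, NF-kB, myeloid, stem cell and cell cycle genes. The other called genes (Gucy1b1, Col28a1, Sla, Fyb, Pcp4l1, Ffar2, Dhx40, Tent5a, Slc14a1, Col18a1, Lhfpl2 and 2810468N07Rik), Wfdc17, Wfdc18, Mt1, Hbb-bt, Kit and list members without a call were named after their values were seen. 1 called gene is not reported here. The members and gene lists were chosen with earlier results of these data known.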

Additional observations from a re-analysis of the deposited data

Results flagged for a closer look

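Among 124 groups of 4 libraries looked at (59 genes and 3 summed lists in ko IL1 and in ko PBS), 7 had a library far from the other 3, and chance flags about 1 in 20 groups. In ko IL1, Cd53 was lowest in replicate 2 (66.6 CPM, the next 123), Lcn2 was highest in replicate 1 (29.3 CPM, the next 2.47), Cyp26b1 was highest in replicate 4 (2.21 CPM, the next 0.684), 2810468N07Rik was lowest in replicate 2 (7.70 CPM, the next 11) and Hlf was lowest in replicate 1 (339 CPM, the next 544). In ko PBS, Col28a1 had reads in replicate 1 only (0.0844 CPM) and Pcp4l1 was highest in the same library (42.3 CPM, the next 34.9). None of the 59 genes had non-overlapping responses in opposite directions in ko and wt HSC.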

How the results depend on the processing

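All 35 called genes kept their direction in the 17 alternatives to the ko HSC fit, and 8 were called in all 17 (the 9 that held without any 1 library, less Tmem215). Genes called higher and lower in ko HSC (24 and 11) numbered 108 and 72 by DESeq2, 28 and 22 by limma voom, 63 and 37 without a filter, 54 and 17 with the replicate block, 43 and 7 in a fit of all 27 libraries and 20 and 4 with only the 8 ko HSC libraries. Leaving out single ko HSC libraries gave 9 to 22 higher and 0 to 15 lower, and leaving out the library labelled wt IL1 replicate 1, which shares the fit, gave 34 higher. In wt HSC (26 and 7) there were 114 and 64 by DESeq2, 139 and 84 by limma voom, 62 and 29 without a filter, 113 and 54 with the block and 43 higher in the fit of all 27; leaving out libraries gave 9 to 29 higher and 0 to 9 lower. The difference in response, ko minus wt (0 and 0), had 1 gene lower, Wfdc17, by DESeq2, without a filter, in the fit of all 27 and with the Y-linked covariate, and 2 higher (Mcm2 and Pold1 of the DNA replication list, 1.3 and 1.42 on the log2 scale, edgeR adjusted p = 0.0390 and 0.0148) and 18 lower with the block; leaving out libraries gave 0. The difference HSC minus HPC in ko had 10 and 10 by DESeq2 and 1 lower with the block, and 0 to 1 in each direction when libraries were left out. The cause of these shifts was not tested. The deviations of ko libraries that share a replicate number correlated at -0.03, 0.01, 0.11 and 0.22 for replicates 1, 2, 3 and 4. Those of replicates 3 and 4 were above every pair of unlike numbers (at most 0.09), while replicates 1 and 2 did not correlate best with their own number. Replicate 4 had the highest level of mitochondrial genes in ko IL1, ko PBS and wt PBS (3.78%, 3.54% and 4.88% of the scaled library total). The numbers were not taken to pair the samples in the main fit, and the counts with the replicate block are those given above. Whether libraries with the same number share an origin was not tested.

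Reversals were seen only for genes that were not called. Relb had a log2 fold change of 0.02, and -0.049 by limma voom, -0.057 with the block, -0.042 with the Y-linked covariate and -0.16 to 0.27 with libraries left out. Leaving out single libraries gave -0.166 to 0.041 for Hlf, -0.264 to 0.191 for Myc and -0.084 to 0.411 for Nfkb2. With 4 libraries a group and 22.9 M to 38.7 M counts each, no detection limit was tested, and the fold changes of called genes with few reads in ko PBS, such as Lcn2 and Col28a1, rest on few counts.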

Other observations

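Among the remaining gene lists, stem cell-associated genes alone held calls in ko HSC. Ribosome biogenesis genes and MYC targets had a negative log2 fold change in 29 of 35, with a median of -0.17, which stayed between -0.36 and -0.08 when each ko HSC library was left out. Gnl3, a nucleolar GTP-binding protein, averaged 57.3 ± 10.9 CPM in ko IL1 and 93.4 ± 42.1 CPM in ko PBS (SD, n = 4 each; log2 fold change -0.71 ± 0.27, edgeR adjusted p = 0.463). Immediate early genes were negative in 18 of 22, with a median of -0.20; Egr1, an early transcription factor that helps to hold HSC in quiescence in mice, averaged 8.90 ± 5.37 CPM in ko IL1 and 37.8 ± 17.0 CPM in ko PBS (log2 fold change -2.09 ± 0.61, edgeR adjusted p = 0.273). Lymphoid-primed genes had a median of 0.30 with 11 of 19 positive, and Dntt, the terminal transferase of early lymphoid cells, averaged 1.91 ± 1.39 and 0.163 ± 0.113 CPM in those groups (edgeR adjusted p = 0.216).

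Among chemokine receptors Cxcr4, which retains HSC in the marrow, averaged 34.4 ± 26.6 CPM in ko IL1 and 16 ± 4.55 CPM in ko PBS (log2 fold change 1.1 ± 0.37, edgeR adjusted p = 0.366). The medians of interferon-stimulated genes (0.00), unfolded protein and stress response genes (0.10), nuclear subunits of oxidative phosphorylation (-0.08), glycolysis (-0.07), the MHC class II pathway (-0.04), apoptosis regulators (0.10), antioxidant and metal response genes (-0.09) and H3K4 methyltransferases and their partners (0.10) lay within the quartiles of all genes tested, -0.29 and 0.26. The medians of the ribosome biogenesis and immediate early lists lay there too, so lying there does not show a list to be unchanged. Stem cell-associated genes had a median of -0.09 with 16 of 40 positive, and of the called members Clca3a1 rose and Sult1a1 fell.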
